A study of Gallus gallus with 16 samples.

Results

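Granulosa cells of pre-ovulatory follicles (poGC) were compared with granulosa cells of pre-hierarchical follicles (phGC) in primary culture, with both stages under the same control siRNA. The samples were chosen by their labelled follicle stage and treatment, which gave 8 of the 16 libraries of a study of FOXL2 knockdown in the hen ovary. The 4 libraries of the poGC-CT group came from pre-ovulatory follicles, and the 4 libraries of the phGC-CT group came from small yellow pre-hierarchical follicles. In both groups the cells were taken from White Leghorns hens of 25 to 30 weeks, cultured for 16 h, and transfected with the non-targeting duplex NC-siRNA in Lipofectamine 3000. The other 8 libraries received FOXL2-siRNA in place of NC-siRNA (4 of poGC-KD and 4 of phGC-KD). They were used to repeat the stage comparison and to test whether it differed between the siRNAs. They also entered checks on all 16 libraries and the estimate of transcript lengths. PolyA RNA was sequenced as paired-end reads, and the deposited values were read counts per gene. The labels give neither a culture or sequencing batch nor the hen behind a library, so follicle stage and any difference between the cell preparations cannot be told apart, and p-values measure the spread between these libraries only.

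Every library compared had received NC-siRNA, so its strands are shown. Capitals mark the 2-base overhang of each strand, and the lower-case 19 bases form the duplex.
NC-siRNA strand 1: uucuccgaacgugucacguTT
NC-siRNA strand 2: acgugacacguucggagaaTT

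In the hen, small yellow follicles form a pool from which single follicles are selected into a size-ranked hierarchy, and the granulosa layer of a selected follicle matures until ovulation. Immature granulosa cells divide, are rich in anti-Müllerian hormone and make little steroid, whereas mature ones respond to luteinizing hormone and make progesterone. Type I and type III interferons are secreted antiviral proteins. They are induced when sensors such as MDA5 or TLR3 bind RNA, and they act through JAK kinases, STAT2 and IRF9 to raise a large set of interferon-stimulated genes.

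The poGC-CT libraries held 36191442 to 53062138 counts in genes and the phGC-CT libraries 30476674 to 32997177, and these ranges did not overlap (exact permutation test, two-sided, p = 0.0286, the smallest that 4 against 4 libraries allow). Within a group, log-scaled libraries correlated at 0.959 to 0.970 (Pearson, over genes). The first principal component held 65.0% of the variance and separated the stages, with poGC-CT at 70.4 to 75.6 and phGC-CT at -81.0 to -65.0. Of 14089 genes tested, 5730 differed between the stages at an adjusted p under 0.05 and a fold change over 1.5 (40.7%). Of these, 3278 were higher in poGC-CT (23.3%) and 2452 were lower (17.4%), an excess that was not seen with upper-quartile scaling (2959 higher, 2936 lower) or on log2(FPKM + 1) (2117 and 2114), and a gene is called below only when it met both criteria. The libraries of the stages did not overlap for 60.3% of genes tested, with poGC-CT higher for 30.7% and lower for 29.7%. FOXL2, which marks granulosa cells and is the target of the other siRNA, had 16089 to 20805 normalized counts in poGC-KD, against 28174 to 31454 in poGC-CT, when all 16 libraries were scaled together. The phGC-KD libraries had 14868 to 20726, against 19328 to 27898 for those of phGC-CT, so the siRNA groups separated in poGC but overlapped in phGC. By qRT-PCR and Western blot, the study reported FOXL2 lowered by its siRNA in both cell types. Fold changes also moved with transcript length: the median log2 fold change was -0.35 in the bin of the shortest genes and 0.57 in the bin of the longest genes when genes were split into 10 bins, and Spearman's rho was 0.303 over genes. Removing this trend left 5223 genes called (2769 higher, 2454 lower), an alternative chosen after seeing the data, and the genes named below whose calls changed with it are pointed out. Other list members lost or gained calls too. Libraries also deviated with length from the mean of their own group (Spearman's rho -0.436 to 0.478 in phGC-CT and -0.384 to 0.217 in poGC-CT). What produced these trends was not tested.

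**Figure D1:**
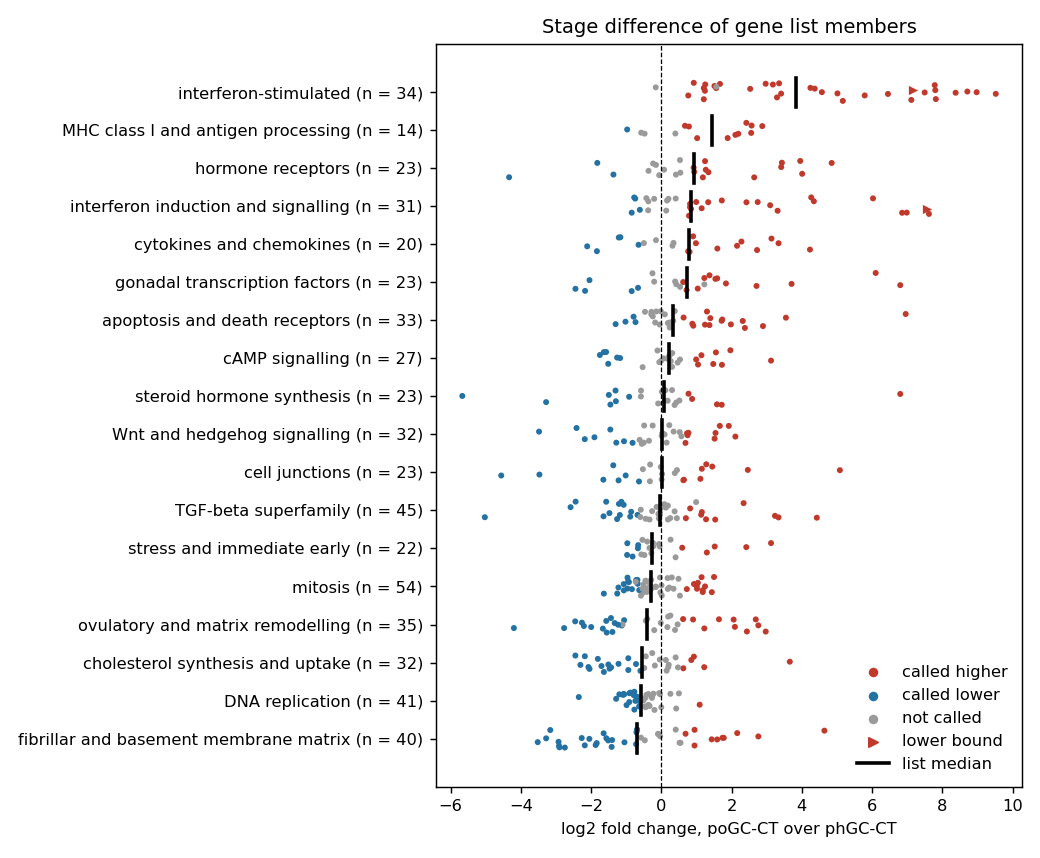
Log2 fold change (poGC-CT over phGC-CT, x axis) of each tested member of 18 gene lists (rows). Red points are called higher, blue points are called lower, grey points are not called, triangles are lower bounds for genes at 0 counts in phGC-CT, black bars are list medians and the dashed line is no difference. The interferon-stimulated list has no member called lower and a median of 3.83, whereas the median of all genes tested is near 0.

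Transcripts of 2 interferon ligands, IFNB and IFNL3, were higher in poGC-CT and at or near 0 in phGC-CT. IFNB, the type I interferon beta, had 1814, 1969, 2619.9 and 2053 normalized counts (counts scaled to a common library size) in poGC-CT, against 6.26, 9.44, 9.91 and 16.7 in phGC-CT. The lowest poGC-CT library thus lay far above the highest phGC-CT library (log2 fold change 7.62, SE 0.237, adjusted p = 2.57e-08). IFNL3, the type III interferon lambda, had 208, 52.4, 236 and 189 normalized counts in poGC-CT and 0 in each phGC-CT library. Its 809 counts over poGC-CT against 0 put it at least 188-fold higher, with the floor set at 3 counts over the group (adjusted p = 0.000285). Replicate 2 was the lowest of the poGC-CT libraries for IFNL3 but not for IFNB. The other ligands found had too few counts to be tested, IFNA3 with 3 to 23 counts in poGC-CT and 8 to 13 in phGC-CT and IFNG with 0 to 3 in poGC-CT and 0 to 2 in phGC-CT.

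Sensors of double-stranded RNA were higher as well. IFIH1, which encodes the cytosolic double-stranded RNA sensor MDA5, had 17897, 15726, 18759 and 18680.0 normalized counts in poGC-CT, against 208, 109.8, 107 and 136 in phGC-CT (log2 fold change 6.99, SE 0.221, adjusted p = 4.04e-08). TLR3, the endosomal receptor for double-stranded RNA, had 685, 713, 732 and 605 normalized counts in poGC-CT, against 0, 0, 13.6 and 9.56 in phGC-CT (log2 fold change 6.86, SE 0.655, adjusted p = 3.58e-05, and 7.68 without phGC-CT replicate 3). For both genes the stages did not overlap, and the only libraries at 0 were 2 phGC-CT libraries for TLR3. DHX58, which encodes the LGP2 helicase of the same family as MDA5, rose by a log2 fold change of 6.03, and TMEM173, the adaptor STING of the cytosolic DNA pathway, rose by 3.10. MB21D1, the DNA sensor cGAS, rose by 0.85. The adaptor of MDA5, MAVS, was one of the members that did not follow, with a log2 fold change of -0.43 that passed the p threshold but not the fold threshold (called lower at -0.74 with the length trend removed).

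Of 39 listed genes of interferon induction and signalling, 31 were tested, and 19 were called higher and 4 lower in poGC-CT (23.3% and 17.4% of all genes tested), with a median log2 fold change of 0.85 beside 0.0036 over all genes tested. The transcription factors named here differed less than the ligands IFNB and IFNL3 and the sensors IFIH1 and TLR3. IRF7, which amplifies interferon transcription, had 15793, 17594, 17238 and 16090.0 normalized counts in poGC-CT, against 1609, 1763, 1894 and 1462 in phGC-CT, a 9.92-fold difference with no overlap (SE 0.0891 on the log2 scale, adjusted p = 1.14e-08). IRF9, the DNA-binding partner of STAT2, rose by a log2 fold change of 4.27, STAT2 by 2.42 and IRF1 by 2.74. The receptor chains and kinases moved less. IFNAR1, a chain of the type I interferon receptor, rose by 0.82, JAK1 by 0.99 and JAK2 by 1.72, whereas IFNAR2, the other chain, was at 0.16 (adjusted p = 0.117) with overlapping libraries. Among the 4 members called lower were IKBKE (-0.84), IFNLR1 (-0.74), a chain of the type III interferon receptor whose libraries overlapped, and TLR21 (-0.61). IFNLR1 was not called without phGC-CT replicate 1 (-0.57) or 3 (-0.69) or without poGC-CT replicate 1 (-0.60) or 4 (-0.69), and TLR21 was not called without phGC-CT replicate 3 (-0.58) or poGC-CT replicate 1 (-0.54).

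The interferon-stimulated genes showed the widest gap of any list. Of 40 listed genes, 34 were tested, 32 were called higher in poGC-CT and none lower, and the median log2 fold change was 3.83. Over all genes tested, these shares were 23.3% and 17.4%. The stages did not overlap for any of the 32, a pattern shown in this direction by 30.7% of all genes tested. The list held 34 of the 14089 genes tested and supplied 21 of the 299 genes called with a log2 fold change above 3. Its members were chosen with earlier results of these data known, so this count is a description only. OASL, an antiviral protein of the oligoadenylate synthetase family, had 162706, 197512, 188354 and 180934 normalized counts in poGC-CT, against 897, 1137, 1310.3 and 692 in phGC-CT (log2 fold change 7.50, SE 0.231, adjusted p = 3.3e-08). RSAD2, which encodes the antiviral enzyme viperin, had 52567, 50321, 54875 and 56081 in poGC-CT, against 212, 318, 263 and 177 in phGC-CT (7.78, SE 0.193, adjusted p = 8.04e-09). MX1, an antiviral GTPase, had 4813, 5064, 6887 and 6208 in poGC-CT, against 71.4, 56.7, 75.5 and 58.6 in phGC-CT (6.45, SE 0.169, adjusted p = 9.87e-09). For each of these genes the 4 libraries of a stage lay close together and the stages were far apart.

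IFIT5, which binds the ends of viral RNA, rose 333-fold, and IFI6 rose 420-fold. EPSTI1 (log2 fold change 8.98) and SAMD9L (9.52, and 10.96 without phGC-CT replicate 2) had phGC-CT libraries at 0, and IFITM5, with 616 counts over poGC-CT against 0, was at least 143-fold higher. EIF2AK2, the double-stranded RNA kinase PKR that blocks translation, rose by a log2 fold change of 4.37, ADAR, which edits double-stranded RNA, by 1.51, and ZC3HAV1, which encodes the zinc-finger antiviral protein, by 1.67. The feedback inhibitor USP18 rose 10.6-fold, and LY6E rose 9.04-fold. The members that were not called were UBA7 (-0.16) and GBP (1.57), and both had overlapping libraries.

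**Figure D2:**
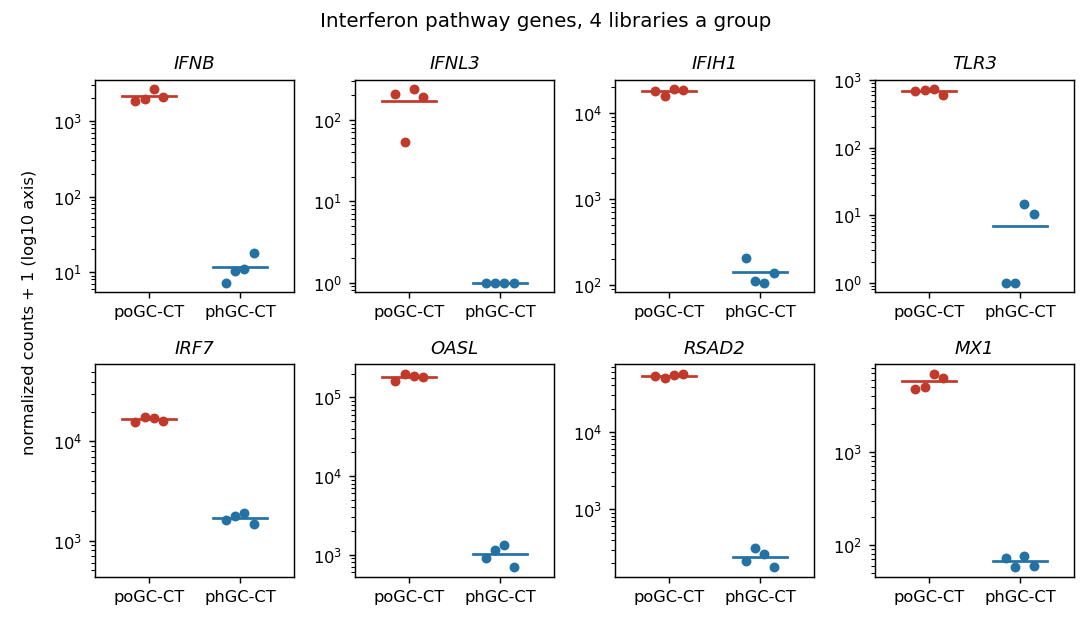
Normalized counts (log10 axis, 1 added to each value) of 8 genes of the interferon pathway in each of the 4 poGC-CT libraries (red, left) and the 4 phGC-CT libraries (blue, right), with short bars at the group means. In every panel the 4 poGC-CT points lie above the 4 phGC-CT points, and IFNL3 is at 0 counts in all 4 phGC-CT libraries.

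Antigen presentation genes were higher by smaller folds. Of 14 tested genes of MHC class I and antigen processing, 10 were called higher and 1 lower, with a median log2 fold change of 1.45. TAP1, a subunit of the peptide transporter, had 5459, 6256, 5840.2 and 6183 normalized counts in poGC-CT, against 838, 1036, 1068 and 1056 in phGC-CT (2.57, SE 0.0913, adjusted p = 4.99e-08). TAP2 (2.56), NLRC5 (2.87), the transactivator of class I genes, and the class I chains BF1 (2.19) and BF2 (2.11), whose close likeness leaves the split of reads between them uncertain, rose with it, and B2M, the light chain, rose 2.03-fold. PDIA3, a chaperone of the endoplasmic reticulum that also serves many other proteins, fell by 0.97 on the log2 scale. Of 20 tested cytokines, chemokines and NF-kappaB factors, 11 were called higher and 5 lower (median 0.78). For comparison with this list and the MHC list, 23.3% of all genes tested were called higher and 17.4% lower. TNFAIP3, a feedback inhibitor of NF-kappaB, rose 10.1-fold, CXCL12 rose 8.79-fold and IL6 by a log2 fold change of 1.59. TNFSF10, the death ligand TRAIL, was called lower, with 1903, 5177, 5236 and 1991 normalized counts in poGC-CT, against 16790.2, 15272, 14971 and 14824 in phGC-CT (-2.11, SE 0.375, adjusted p = 0.00155). Its poGC-CT libraries split into 2 lower libraries (replicates 1 and 4) and 2 higher ones, all below the phGC-CT libraries.

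Leukocyte markers were mostly low and moved in both directions, with 3 of 7 tested called higher and 1 lower (median log2 fold change 0.12). Beside this, 23.3% of all genes tested were called higher and 17.4% lower. The summed level of the leukocyte markers was 4898 to 5594 normalized counts in poGC-CT and 3253 to 4144 in phGC-CT. Most of it was CD74, which other cells also express. Of the 16 markers found, 8 had at most 10 counts in each library, among them CD4, CD8A, MARCO and SPI1. PTPRC, the pan-leukocyte antigen CD45, had 54.5, 64.3, 39.6 and 69.9 normalized counts in poGC-CT, against 18.8, 9.44, 24.8 and 23.9 in phGC-CT (1.56, SE 0.332, adjusted p = 0.00272). In bulk RNA, more cells of a type and more RNA per cell cannot be told apart, and the part of leukocytes in the interferon difference was not tested.

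Steroid hormone synthesis did not move as a block. Of 27 listed genes, 23 were tested, 5 were called higher and 7 lower in poGC-CT, and the median log2 fold change was 0.09. Over all genes tested, 23.3% were called higher and 17.4% lower. The cholesterol carrier STAR and the enzymes CYP11A1 and HSD3B2 of progesterone synthesis were higher, whereas the cholesterol carriers TSPO and STARD4 were lower. CYP11A1, the side-chain cleavage enzyme, had 18534, 22234, 20815 and 19552 normalized counts in poGC-CT, against 5289.8, 6501, 6389 and 6468 in phGC-CT (1.72, SE 0.0859, adjusted p = 3.56e-07). STAR, which carries cholesterol to that enzyme, had 2877, 3107, 3202 and 2981 in poGC-CT, against 1569, 1641, 1693 and 1726 in phGC-CT (0.88, SE 0.0608, adjusted p = 2.83e-06). HSD3B2, which makes progesterone from pregnenolone, had 35759, 38689.6, 40889 and 39907 in poGC-CT, against 20464, 20184, 28345 and 21811 in phGC-CT (0.77, SE 0.11, adjusted p = 0.000252). None of these 3 genes overlapped between the stages, and the differences were 3.29-fold, 1.84-fold and 1.71-fold.

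The largest steroidogenic difference was in a regulator. NR5A2, a nuclear receptor that activates steroidogenic promoters, had 3731, 3475, 3553 and 3930.1 normalized counts in poGC-CT, against 33.8, 27.2, 16.1 and 53.8 in phGC-CT, a 112-fold difference (SE 0.273 on the log2 scale, adjusted p = 1.19e-07). Its relative NR5A1 (SF-1) was at 0.42, past the p threshold but under the fold threshold, and NR0B1 (DAX-1), a repressor of both, fell by 3.28. AKR1D1, the 5-beta-reductase that inactivates steroids, had 221, 183, 182 and 246 normalized counts in poGC-CT, against 9582, 10909, 10802 and 10935 in phGC-CT, which left 1.97% of the phGC-CT level (-5.67, SE 0.119, adjusted p = 3.71e-09). HSD17B1 (-1.45), SRD5A1 (-1.29) and the cholesterol carrier TSPO (-0.92) fell too, and 35.5% of the phGC-CT level of HSD17B7 and 40.5% of that of STARD4 was left. CYP17A1, which leads towards androgens, was not called (0.38, adjusted p = 0.137) and its libraries overlapped, and CYP19A1, the aromatase, had too few counts to be tested.

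Most hormone receptors that differed were higher in poGC-CT, 12 of 23 tested against 3 lower, with a median log2 fold change of 0.92. Calls over all genes tested were 23.3% higher and 17.4% lower. FSHR, the follicle-stimulating hormone receptor, had 8184, 7732, 8579 and 8268 normalized counts in poGC-CT, against 3689, 3891, 2681 and 3362 in phGC-CT (1.27, SE 0.107, adjusted p = 9.9e-06). LHCGR, the luteinizing hormone receptor, had 6124, 6759, 2927 and 6311 in poGC-CT, against 4517, 4814, 2147 and 3701 in phGC-CT. It was not called (0.54, SE 0.324, adjusted p = 0.179), and replicate 3 was the lowest library of each stage. Without poGC-CT replicate 3 it was called higher (0.76, adjusted p = 0.0328). The receptors for vasoactive intestinal peptide and PACAP rose more than either, with log2 fold changes of 4.01 for VIPR2, 3.95 for VIPR1 and 3.41 for ADCYAP1R1. In phGC-CT, VIPR1 had 195 normalized counts in replicate 2 and 21.1 to 48.9 in the others, and without that library its log2 fold change was 5.14. ESR1, the estrogen receptor alpha, rose by 2.64 with an uneven poGC-CT group (248, 813, 289 and 969 normalized counts, against 119, 61.4, 83 and 108 in phGC-CT). Smaller rises were those of GHR (1.34) and IGF1R (1.24). PGR, the progesterone receptor, fell to 26.2, 28.7, 29.9 and 30.6 normalized counts in poGC-CT, against 100.2, 80.3, 156 and 74.1 in phGC-CT (-1.82, SE 0.264, adjusted p = 0.00028), and the prostaglandin E2 receptors PTGER2 (-4.33) and PTGER4 (-1.36) were lower as well. When the length trend was removed, 10 receptors were called higher and 4 lower (median 0.56), and PRLR (1.18) lost its call.

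Genes that carry the cAMP signal of these receptors changed in both directions, with 8 of 27 called higher and 6 lower (median 0.23). The shares over all genes tested were 23.3% and 17.4%. GNAS, the stimulatory G protein alpha subunit, rose by 1.04, as did the phosphodiesterases PDE4D (1.97), PDE8A (1.73) and PDE4B (1.55), which break down cAMP. PDE3A (-1.57), the cyclases ADCY2 (-1.51) and ADCY8 (-1.17), and RGS2 (-1.75), a brake on G protein signalling, fell. ATF3, an early response factor, rose 8.72-fold.

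Among TGF-beta superfamily genes, 10 of 45 tested were called higher and 14 lower (median -0.04), beside 23.3% and 17.4% of all genes tested. Ligand and subunit transcripts moved in both directions. AMH, the anti-Müllerian hormone of immature granulosa cells, had 1894, 1928, 1988 and 1818 normalized counts in poGC-CT, against 49271, 67891, 62854 and 68369 in phGC-CT, which left 3.07% of the phGC-CT level (-5.02, SE 0.119, adjusted p = 6.18e-09). INHA, the inhibin alpha subunit, had 1901, 2105, 2162 and 1976 in poGC-CT, against 791, 889, 1107 and 924 in phGC-CT (1.13, SE 0.104, adjusted p = 1.63e-05). INHBA, the beta A subunit of inhibin A and activin A, had 1703, 1819.7, 2132 and 1324 in poGC-CT, against 207, 163, 159 and 163 in phGC-CT, a 10.1-fold difference (SE 0.164, adjusted p = 3.32e-07). The beta B subunit went the other way, since INHBB had 142, 92.2, 133 and 152 normalized counts in poGC-CT, against 304, 364, 272 and 301 in phGC-CT (-1.26, SE 0.174, adjusted p = 0.000207).

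No bone morphogenetic protein ligand was called higher. The ligands called lower included BMP5 at -2.58, BMP2 at -1.57, BMP3 at -1.14 and BMP4 at -1.07, and so was the activin-binding FST (-0.89). The BMP antagonist GREM1 rose by 4.43, NOG by 0.70 and the decoy receptor BAMBI by 1.53. Downstream, SMAD2, a mediator of activin signals, rose 9.42-fold, SMAD5, a mediator of BMP signals, rose 5.07-fold and SMAD3 by a log2 fold change of 1.15. SMAD1 (-0.07) and SMAD4 (-0.26) were not called, and ID3, a target of BMP signalling in many cells, fell by 2.44.

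Transcription factors of gonadal development were more often higher than lower in poGC-CT, with 12 of 23 tested called higher and 5 lower (median 0.72). By comparison, 23.3% of all genes tested were called higher and 17.4% lower. WT1, which marks immature granulosa cells, had 1660.4, 1017, 1142 and 1268 normalized counts in poGC-CT, against 5816, 4911, 4940.1 and 5323 in phGC-CT (-2.05, SE 0.146, adjusted p = 3.39e-06). GATA6, an activator of steroidogenic genes, had 19244, 20547, 21257 and 18729 in poGC-CT, against 10149.8, 8604, 10309.9 and 9821 in phGC-CT (1.04, SE 0.0712, adjusted p = 2.67e-06). ESRRB, an orphan nuclear receptor, had 1948, 1932, 1967 and 2092 in poGC-CT, against 57.6, 204, 172 and 172 in phGC-CT (3.71, SE 0.325, adjusted p = 1.84e-05). RUNX1 (1.22), NR2F1 (1.54) and NR2F2 (1.84) rose, as did DMRT1 (6.10), best known as the testis-determining factor of birds, at 115 to 152 normalized counts in poGC-CT and 0 to 3.76 in phGC-CT. FOXL2 itself was at 0.39 (adjusted p = 0.0119), under the fold threshold, and GATA4 was at -0.25 with overlapping libraries. With the length trend removed both were called, FOXL2 higher (0.69) and GATA4 lower (-0.62).

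**Figure D3:**
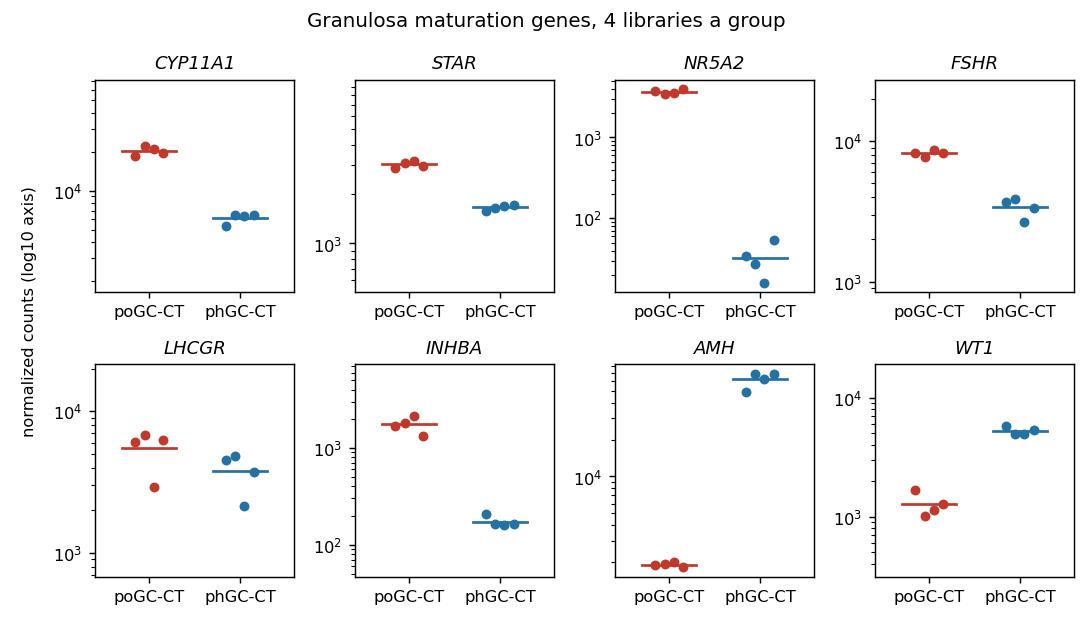
Normalized counts (log10 axis) of 8 genes of granulosa maturation in each of the 4 poGC-CT libraries (red, left) and the 4 phGC-CT libraries (blue, right), with short bars at the group means. CYP11A1, STAR, NR5A2, FSHR and INHBA lie higher in poGC-CT, AMH and WT1 lie lower, and the LHCGR points overlap between the stages.

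Cholesterol synthesis was lower in poGC-CT. Of 32 tested genes of cholesterol synthesis and uptake, 16 were called lower and 5 higher, with a median log2 fold change of -0.54. Shares over all genes tested were 17.4% lower and 23.3% higher. FDPS, the farnesyl diphosphate synthase, had 4578, 5161, 4355 and 4516 normalized counts in poGC-CT, against 19658, 22831, 25032 and 24453 in phGC-CT (-2.31, SE 0.0906, adjusted p = 9.26e-08). Other enzymes along the pathway fell with it, among them MVK (-2.18), IDI1 (-2.05) and SQLE (-1.81), together with the activator SREBF2 (-0.94). HMGCS1, an early enzyme of the pathway, was at 0.41, under the fold threshold. NPC2, which exports cholesterol from the lysosome, had 116462, 128566, 120745 and 121035 normalized counts in poGC-CT, against 8485, 9803, 10367 and 9917 in phGC-CT, a 12.6-fold difference (SE 0.0769, adjusted p = 3.71e-09). The lipoprotein receptor LRP8 (0.93) was another of the called rises.

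Matrix genes were mostly lower, with 22 of 40 tested called lower and 10 higher (median -0.70), beside 17.4% and 23.3% of all genes tested. COL3A1, a fibrillar collagen, had 39447, 37685, 34919 and 37026 normalized counts in poGC-CT, against 188299.7, 161023, 167036 and 159026 in phGC-CT (-2.18, SE 0.0713, adjusted p = 3.44e-08). COL1A1 (-3.28) and the basement membrane genes COL18A1 (-2.93), HSPG2 (-2.05), which encodes perlecan, and LAMC1 (-1.84) fell too. FN1, fibronectin, went the other way with 1338115, 1241862, 1325659 and 1344379 normalized counts in poGC-CT, against 341219, 255348, 286528 and 291362 in phGC-CT, a 4.47-fold difference (SE 0.0888, adjusted p = 1.17e-07). VCAN, the proteoglycan versican, rose 6.78-fold and DCN, decorin, 25.0-fold from a low level.

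Genes of ovulatory remodelling moved in both directions, with 15 of 35 tested called lower and 10 higher (median -0.40). Among all genes tested, 17.4% were called lower and 23.3% higher. MMP9, a gelatinase, had 5912, 6640.2, 5538 and 5912 normalized counts in poGC-CT, against 105447, 92693, 128964 and 113455 in phGC-CT (-4.20, SE 0.116, adjusted p = 1.31e-08). MMP13 (-2.77), the plasminogen activators PLAU (25.0% of the phGC-CT level left) and PLAT (-1.39), and the hyaluronan-binding TNFAIP6 (-2.20) and PTX3 (-2.45) fell. TIMP3, a tissue inhibitor of metalloproteinases, rose 4.17-fold, whereas TIMP4 fell by 2.26 on the log2 scale. PTGS2 and PTGES, which make prostaglandin E2 in sequence, rose by 0.90 and 2.97, and HAS2, the hyaluronan synthase, rose by 2.09 at 43.6 to 65.0 normalized counts in poGC-CT and 11.3 to 15.5 in phGC-CT.

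Epithelial markers were mostly lower as well, and markers of stromal cells moved in both directions. KRT19, an epithelial keratin, had 296, 335, 377 and 352 normalized counts in poGC-CT, against 7740.5, 8863, 9333 and 8665 in phGC-CT (-4.67, SE 0.0973, adjusted p = 3.71e-09). KRT8 (-3.17), KRT7 (-2.46) and EPCAM (-2.78) fell too, and 6 of 7 tested markers of the ovarian surface epithelium were called lower, with summed levels of 4300 to 5290 normalized counts in poGC-CT and 34554 to 41546 in phGC-CT. CDH1, E-cadherin, had 711, 758, 227 and 159 normalized counts in poGC-CT, against 8943, 10684, 12097 and 11693 in phGC-CT (-4.56, SE 0.545, adjusted p = 0.00018), whereas CDH2, the N-cadherin of granulosa cells, was at 0.01. The summed theca and fibroblast markers were 63351 to 66943 normalized counts in poGC-CT and 219925 to 252635 in phGC-CT, with 6 of 11 tested called lower and 2 higher. COL3A1, with a mean of 37269 in poGC-CT and 168846 in phGC-CT, made up most of these sums. COL1A1 and COL3A1 are also matrix list members. DCN and NR2F2 of the same marker list rose, and the largest rise in that list was a log2 fold change of 4.64. The summed granulosa markers were 90363 to 97680 in poGC-CT and 111266 to 133609 in phGC-CT. AMH alone, with a mean of 1907 in poGC-CT and 62096 in phGC-CT, differed by more than these sums. Of the 12 granulosa markers tested, 5 were called higher in poGC-CT and 3 lower, with a median log2 fold change of 0.41. Whether the stages differed in their share of epithelial or stromal cells was not tested. Of the junction genes, 8 of 23 were called higher and 7 lower (median 0.01), and the connexin GJA5 (5.08) and the claudin CLDN1 (1.28) were among the rises. For comparison with the marker and junction counts given here, 23.3% of all genes tested were called higher and 17.4% lower.

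Cell division genes were divided between DNA replication, which was lower, and mitosis, which was mixed. Of 41 tested replication genes, 20 were called lower and 1 higher in poGC-CT (median -0.58). RRM2, a subunit of ribonucleotide reductase, had 3118, 3155, 3090.2 and 2988 normalized counts in poGC-CT, against 6416, 7742, 6867 and 7274 in phGC-CT (-1.20, SE 0.0633, adjusted p = 5.06e-07). The helicase subunits MCM4 (-1.29) and MCM3 (-1.07) and GMNN, the licensing inhibitor geminin (-2.35), fell with it, and POLA1, the catalytic subunit of polymerase alpha, was the 1 member called higher (1.09). Of 54 tested mitotic genes, 14 were called lower and 11 higher (median -0.31), beside 17.4% and 23.3% of all genes tested. CDK1, the mitotic kinase, had 1598, 1704, 1646 and 1665 in poGC-CT, against 2998, 3414, 3219.9 and 3263 in phGC-CT (-0.96, SE 0.0594, adjusted p = 1.33e-06), and PLK1 (-0.96), CCNB2 (-1.07) and CDC20 (-1.64) fell. MKI67, the antigen Ki-67, had 1463, 1184, 1493 and 1356 in poGC-CT, against 816, 609, 607 and 700.3 in phGC-CT (1.01, SE 0.118, adjusted p = 7.52e-05), and SMC4 (2.83-fold), CENPE (1.44) and CENPF (1.15) rose.

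Transcript length moved with this division. Mitotic genes called higher had a median length of 5402 bases and those called lower 1711 bases, as implied by the counts and FPKM of each gene. With the trend removed, 7 mitotic genes were called higher and 16 lower, and MKI67 and CENPF were no longer called, whereas the replication list stayed at 1 higher and 20 lower, with 4 of its members lost and 4 gained.

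**Figure D4:**
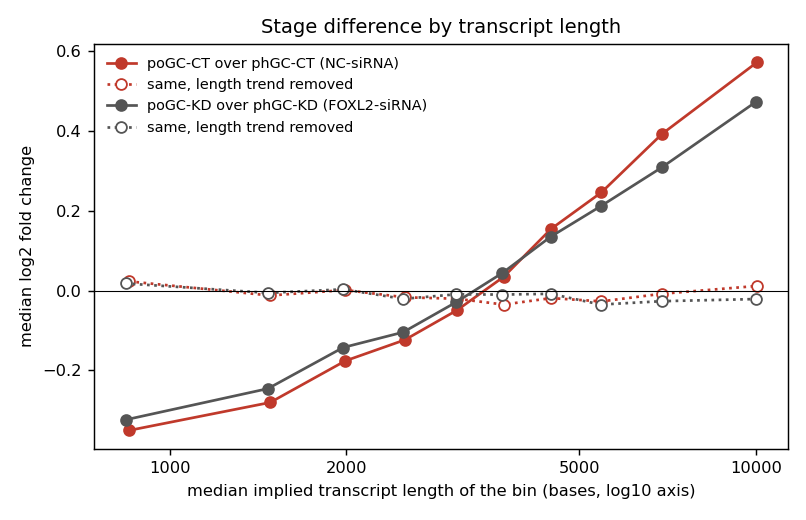
Median log2 fold change (y axis) of genes in 10 bins of implied transcript length (x axis, log10 scale, bases) for poGC-CT over phGC-CT (red) and poGC-KD over phGC-KD (grey), with the trend-removed medians as open symbols. Both stage comparisons rise with length, the medians under NC-siRNA being -0.35 in the shortest bin and 0.57 in the longest, and the trend-removed medians lie near 0.

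Apoptosis and death receptor genes were higher more often than lower, with 15 of 33 tested called higher and 4 lower (median 0.34), and the rises held members of opposite roles. The death receptor FAS rose 3.33-fold, the caspase CASP8 3.29-fold, and TNFRSF1B, a receptor for tumour necrosis factor, by a log2 fold change of 6.96 at 122 to 374 normalized counts in poGC-CT and 0 to 3.76 in phGC-CT. The inhibitors of cell death BCL2 (2.38) and BIRC2 (2.32) rose too, whereas the pro-apoptotic BID fell to 40.6% of the phGC-CT level. Of 22 stress and immediate early genes, 5 were called higher and 5 lower (median -0.26), HMOX1, heme oxygenase, at 2.42 and EGR1 at 1.52 against the chaperone HSPA5 at -0.97. Of 32 Wnt and hedgehog genes, 9 were called higher and 8 lower (median 0.03), the ligand WNT6 at -3.48 and the receptor FZD1 at -1.45 against the secreted antagonist SFRP4 at 2.11. For comparison with these 3 lists, 23.3% of all genes tested were called higher and 17.4% lower.

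Genes outside the lists also stood among the largest falls. FBN3, a fibrillin of the extracellular matrix, had 78.5, 42.3, 49.3 and 47.1 normalized counts in poGC-CT, against 8169, 6296, 7190.3 and 6676 in phGC-CT, the largest fall under the naming rule (-7.05, SE 0.197, adjusted p = 1.39e-08). ANPEP, an aminopeptidase of the cell surface (-5.42), MDK, the growth factor midkine (-5.37), SFRP5, a Wnt antagonist (-5.10), and the complement component C3, at 3.13% of the phGC-CT level, were other falls named by the rule. TMSB4X, thymosin beta 4, had 1018, 1178, 986 and 918 normalized counts in poGC-CT, against 54549, 61435, 68358 and 3802 in phGC-CT (-5.52, SE 0.844, adjusted p = 0.000692), so that phGC-CT replicate 4 was far below the others of its group. Under FOXL2-siRNA its stage difference was 0.46 (adjusted p = 0.82, not called), and the interaction did not pass the test (difference 5.98, adjusted p = 0.0649). Among the most expressed genes, HPX, which encodes the heme carrier hemopexin, had 44543, 47521, 39099 and 43287 in poGC-CT, against 680914, 757324, 899572 and 800584 in phGC-CT (-4.17, SE 0.107, adjusted p = 8.64e-09). APOA1, the apolipoprotein of high-density lipoprotein, fell by 2.60 and the glycolytic GAPDH by 1.23, whereas ZP3, the egg-coat glycoprotein that granulosa cells of birds secrete, rose by 1.07. Of the largest rises, 9 of the 15 named by the rule were interferon-stimulated list members. GPR64, an orphan receptor (7.51), was the 1 on no list. Because the lists were chosen with earlier results of these data known, these counts are a description only.

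The stage comparison was repeated in libraries that shared none of these samples. Of 14349 genes tested in poGC-KD over phGC-KD, 5289 were called (36.9%), 2988 higher (20.8%) and 2301 lower (16.0%). Of 5692 genes called under NC-siRNA and tested again, 5542 had the same sign (97.4%) and 4223 were called in the same direction (74.2%), with Pearson's r = 0.883 over 13961 genes as a description. Stage and any preparation difference are confounded in the same way in both comparisons. Whether the libraries of the siRNA arms came from the same cells is not stated. IFNB rose by 8.10 under FOXL2-siRNA, RSAD2 by 8.19 and MX1 by 5.86, 32 of 35 tested interferon-stimulated genes were called higher and none lower, and the list median was 3.16.

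The stage difference itself differed between the siRNAs for 1365 of 14775 genes tested at an adjusted p under 0.05 for the interaction (9.24%). In the interferon-stimulated list 5 of 35 passed, among them USP18, whose stage difference was 2.73 under FOXL2-siRNA and 3.41 under NC-siRNA (difference -0.67, SE 0.0802, adjusted p = 8.48e-05). In the steroid list 4 of 23 passed. CYP11A1 (1.66 under FOXL2-siRNA) and NR5A2 (6.96) did not pass the interaction test, whereas STAR was at -0.06 under FOXL2-siRNA and 0.88 under NC-siRNA (difference -0.93, SE 0.178, adjusted p = 0.0035). HSD3B2 was at 0.21 under FOXL2-siRNA and was not called there (edgeR adjusted p = 0.153). Its interaction did not pass the test (adjusted p = 0.0505). AMH fell further under FOXL2-siRNA (-6.14, interaction adjusted p = 0.00236), and INHBB was at 0.51 there (interaction adjusted p = 0.000509). Among cell division genes, 28 of 41 for replication and 44 of 54 for mitosis passed the interaction threshold, beside 9.24% of all genes tested. Each of them had the more positive stage difference under FOXL2-siRNA. These lists were chosen with earlier results of these data known, so the counts are a description only. The study had also reported cell division and DNA replication as enriched in its poGC knockdown comparison. RRM2 was at 0.29 and CDK1 at 0.22 in poGC-KD over phGC-KD, and no mitotic gene was called lower there, 28 being called higher.

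**Figure D5:**
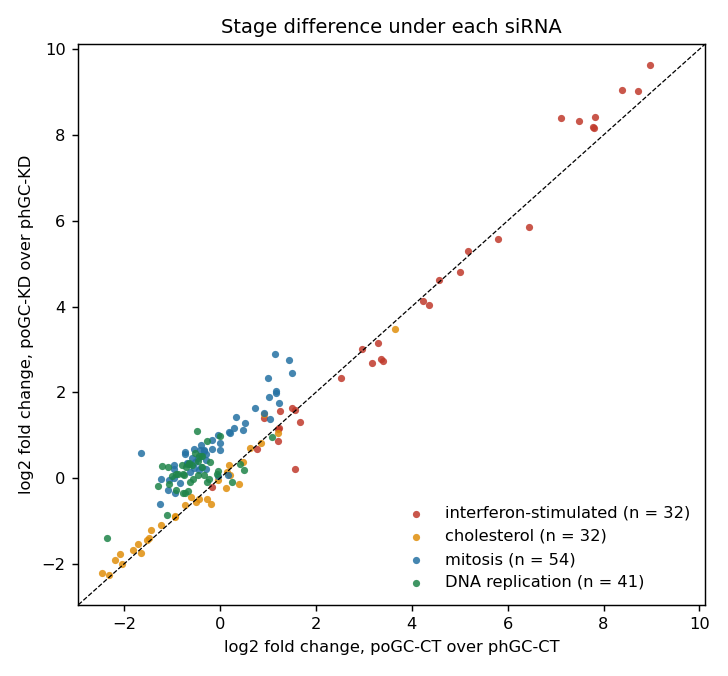
Log2 fold change of the stage comparison under FOXL2-siRNA (y axis, poGC-KD over phGC-KD) against that under NC-siRNA (x axis, poGC-CT over phGC-CT) for members of 4 lists tested in both. The dashed line marks equal values. Genes with 0 counts in a phGC group are left out. Most interferon-stimulated genes (red) and cholesterol genes (orange) lie along it, whereas most mitotic genes (blue) and replication genes (green) lie above it.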

How the data were processed

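Total RNA of cultured hen granulosa cells was sequenced as polyA paired-end libraries, 4 per group. The authors deposited, per library, read counts per gene (not normalized) and FPKM (fragments scaled by transcript length and library size) for 18151 gene rows, 187 of which share a symbol with another row. The study's methods name TopHat2, a Gallus_gallus-5.0 genome and DESeq, whereas the submitters' processing notes name HISAT2 2.1.0, StringTie 1.3.4d and DESeq2 1.26.0 without roles. The counting program and its strand setting are not given in the sources used here, so overlapping or antisense genes cannot be separated. No coordinates were used.

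Counts of the 8 NC-siRNA libraries were filtered with edgeR's filterByExpr, scaled by TMM and tested with edgeR's quasi-likelihood F-test (R 4.3.3, edgeR 4.0.16) without covariates. P-values were adjusted by Benjamini-Hochberg over all genes tested, and genes were called at an adjusted p under 0.05 and a fold change over 1.5. Normalized counts are counts scaled by TMM library sizes. The same fit was run on the 8 FOXL2-siRNA libraries, and the stage by siRNA difference was tested in a fit of all 16. Gene lengths were implied by the ratio of the deposited counts to FPKM, and the length trend was a lowess curve per library (span 0.3), used as an offset. Limma 3.58.1 on log2 FPKM, DESeq2 1.42.0, upper-quartile scaling, other filters, thinned counts and each library left out were alternatives. The code was tested on simulated data. The totals of 30476674 or more counts per library leave counting error small except for genes with few counts.

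Members, lists and markers were chosen with earlier results of these data known: 19 gene lists (1 of them, of mitochondrially encoded genes, matched no row) and 8 lists of cell type markers. Beyond list members, the text names genes from the 15 largest rises, the 15 largest falls and the 10 most expressed other called genes. The largest rises and falls had no overlap between libraries and a mean of at least 100 normalized counts, and every symbol named by this rule stands on 1 row and is no bare LOC number. No promoter or protein sequence was used. Some genes of the lists are not reported here by name.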

Additional observations from a re-analysis of the deposited data

Results flagged for a closer look

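In 23 of 376 groups of 4 libraries examined, 1 library stood apart from the others, and chance alone sets 1 library apart in about 1 of 20 groups. Among these, phGC-CT replicate 1 stood apart for 8 genes. It was the lowest library for TAP1 (838 normalized counts), CYP11A1 (5289.8), AKR1D1 (9582), HSD17B7 (7025) and KRT8 (2725), and the highest for PDE8A (1663), INHBA (207) and BMP5 (174). Replicate 2 of phGC-CT was the highest for CXCL12 (82.6) and VIPR1 (195). Replicate 3 of phGC-CT was the highest for IRF9 (246), TMEM173 (390.1) and HMOX1 (1326) and the lowest for EIF2AK2 (198) and GJA5 (0). In poGC-CT, replicate 1 was the highest for GBP (463) and PTX3 (101) and the lowest for HAS2 (43.6), replicate 2 was the lowest for MB21D1 (468), IFIT5 (67281) and TIMP4 (112), and replicate 3 was the lowest for IFNAR2 (2946) and LHCGR (2927).

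Over all genes tested, the stage difference differed between the siRNAs for 1365 of 14775, or 9.24% (edgeR interaction test, adjusted p under 0.05). The 185 genes examined were picked with results of these data known, so their count is a description only. Of these 185 genes, 49 passed, 25 of them with a more positive difference under FOXL2-siRNA and 24 with a more negative one. Each value in parentheses here is the log2 fold change of the stage under FOXL2-siRNA minus that under NC-siRNA. Among interferon genes these were IRF1 (0.84), OASL (0.84), ZC3HAV1 (-0.35), USP18 (-0.67) and LY6E (-0.47). Steroid, receptor and signalling genes were STAR (-0.93), NR5A1 (-0.46), CYP17A1 (-1.07), VIPR2 (-0.93), GHR (-0.93), RGS2 (0.74) and ATF3 (-0.56). The TGF-beta superfamily and its neighbours gave AMH (-1.11), INHBA (-1.42), INHBB (1.78), BMP2 (-0.74), BMP4 (0.80), FST (-0.64), SMAD1 (-0.39) and WT1 (-0.84). Cell division genes were all positive, with RRM2 (1.49), MCM4 (1.11), MCM3 (1.35), GMNN (0.96), CDK1 (1.20), PLK1 (1.29), CCNB2 (1.04), MKI67 (1.34), SMC4 (0.96), CENPE (1.34) and CENPF (1.76). Matrix, remodelling and epithelial genes were COL3A1 (-0.79), MMP9 (-0.59), PLAU (-1.001), PLAT (0.62), TNFAIP6 (-0.66), PTX3 (1.78), TIMP4 (1.06), PTGS2 (-0.74), KRT19 (1.64) and KRT8 (0.67). The others were HMGCS1 (-0.53), LRP8 (0.59), BIRC2 (-0.48), WNT6 (0.85), SFRP4 (0.83), ANPEP (-1.13), MDK (1.06) and HPX (-0.44).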

How the results depend on the processing

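None of the 185 genes examined changed direction while called, and the stage difference kept its call or lack of one in 3281 comparisons, lost it in 25 and gained it in 5. Genes that an alternative did not test are not in these counts. With at least 10 counts required in every library, 167 of the 185 were compared. The number of genes called between the stages was 5482 to 6042 when each library was left out in turn, 5794 with DESeq2, and 4231 (limma on log2(FPKM + 1)) to 5917 (all 16 libraries in 1 fit) under the other alternatives. At the study's own criteria, an unadjusted p under 0.05 and a fold change over 1.5, 5859 genes passed (5635 to 6181 with a library left out). The count in FOXL2-siRNA libraries was 5127 to 5396 with a library left out, and the count for the stage by siRNA difference was 1060 (without poGC-CT replicate 4) to 1837 (without phGC-CT replicate 1), 1908 with DESeq2 and 1774 with the length trend removed. With the replicate block, 5642 genes were called, and none of the genes named here changed its call. The labels do not say what a shared number means, and the deviations of same-numbered poGC-CT and phGC-CT libraries correlated at -0.01 to 0.04. The interferon-stimulated median of 3.83 moved to 3.41 with all 16 libraries in 1 fit, 3.36 with at least 10 counts in every library, 3.42 with no filter and 2.88 on log2(FPKM + 1), and was 3.77 to 3.89 with a library left out, whereas the steroid list median was 0.06 to 0.13. The pseudocount of 1 FPKM and the count filters act on genes with few counts. GBP was called with DESeq2 (1.58, adjusted p = 0.0442). On log2(FPKM + 1), 13 of the genes named lost their calls.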

Other observations

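Of the thyroid axis receptors on the list, TSHR and THRB were expressed at a low level and rose in poGC-CT, whereas THRA, the thyroid hormone receptor alpha, was not called (log2 fold change -0.06, edgeR adjusted p = 0.524). TSHR, the receptor for thyroid-stimulating hormone, had 42.5, 35.5, 56.8 and 54.2 normalized counts in poGC-CT, against 2.51, 0, 0 and 3.59 in phGC-CT (log2 fold change 4.85, SE 0.64, edgeR adjusted p = 0.000158, and 5.66 without phGC-CT replicate 4). THRB, the thyroid hormone receptor beta, had 90.5, 119, 111 and 105 in poGC-CT, against 13.8, 7.08, 7.43 and 10.8 in phGC-CT (3.43, SE 0.256, adjusted p = 4.45e-06). The libraries of the stages did not overlap for TSHR or THRB.

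The summed smooth muscle markers were 39012 to 45873 normalized counts in poGC-CT and 31959 to 35119 in phGC-CT, with 1 of 8 tested called higher and 3 lower, among them DES, the muscle intermediate filament desmin (-1.62), and TAGLN, transgelin (-0.73, and -0.45 and not called with the length trend removed). The summed endothelial markers were 3396 to 8049 in poGC-CT and 5092 to 5397 in phGC-CT, with 1 of 8 called higher, PECAM1, the adhesion molecule CD31 (1.17), and 3 lower. The summed oocyte markers were 178 to 216 in poGC-CT and 272 to 355 in phGC-CT, ZP1, an egg-coat gene, being the 1 of 3 tested that was called (-2.05). The summed erythroid markers were 0 to 7.85 in poGC-CT and 26.3 to 49.6 in phGC-CT, and none had enough counts to be tested. For comparison with the other marker lists here, 23.3% of all genes tested were called higher and 17.4% lower.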
